A study of Mus musculus with 4 samples.

Results

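Steroid synthesis genes of the Leydig cell were examined in single cell RNA-seq of testes from 2 WT and 2 Ctcf-cKO mice. The 10 genes were chosen by name: CYP17A1, CYP11A1, HSD3B1, HSD3B6, STAR, INSL3, HSD17B3, LHCGR, FDX1 and HSD17B11. All 10 were listed in each of the 4 tables, which together held 25825 gene symbols. Their counts were followed in Leydig-like cells, in germ-like cells and in barcodes with fewer than 200 genes, which carry RNA outside cells or remnants of cells.

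The WT mice were labelled Ctcf wt/wt. The Ctcf-cKO mice were labelled Stra8-iCre-Ctcf f/Δ, with a floxed and a deleted Ctcf allele and Cre driven by Stra8, which is active in germ cells and not in Leydig cells. All mice were of the C56BL/6J background and 15 weeks old per the labels, whereas the study's methods give a range of ages and allow WT littermates with floxed alleles. Testes were dissociated with enzymes, red blood cells were washed off, and cells were barcoded in ddSEQ droplets with a 3′ library. The study's methods mention that filtrates of 2 tubes were combined for Ctcf-cKO, and give no such step for WT. An effect of this handling cannot be told apart from genotype. Each mouse gave a single library, and the mice keep their labelled numbers, so that WT has replicates 1 and 2 while Ctcf-cKO has replicates 1 and 3. Values given in a row of 4 follow this order.

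Counts per library ran from 1593546 to 6701235, and both Ctcf-cKO libraries were shallower than both WT libraries. Cells numbered 100 and 255 in WT and, in Ctcf-cKO, 237 and 263. They were barcodes with 200 to 7000 genes, at most 10% mitochondrial counts and at least 3 times the count of their library's plateau of low barcodes. Barcodes under 200 genes held 1.57% and 12.1% of the counts of the WT libraries and 40.8% and 46.9% of those of the Ctcf-cKO libraries, so this group differed in depth between the genotypes. CTCF, the deleted gene, had 110 and 49 counts in the WT libraries against 4 and 7 for Ctcf-cKO. Its log2 fold change was -2.19 (SE 0.67, adjusted p = 0.0292, edgeR), and it was not called in germ-like cells (-1.69, adjusted p = 0.620, edgeR). Of the barcodes called cells, 1 sequence occurred in a second library (WT replicate 2 and Ctcf-cKO replicate 1) and no other pair of libraries shared any.

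Leydig cells lie between the seminiferous tubules and make testosterone from cholesterol when luteinizing hormone binds the receptor encoded by Lhcgr. Star brings cholesterol to the inner mitochondrial membrane, where Cyp11a1, supplied with electrons by ferredoxin (Fdx1), cleaves its side chain to give pregnenolone. Enzymes of the Hsd3b family, Cyp17a1 and Hsd17b3 then lead to testosterone. Hsd17b11 is a short-chain dehydrogenase of lipid droplets that acts on hydroxysteroids, and Insl3 encodes a peptide hormone of Leydig cells that guides testis descent. Fdx1 is used by mitochondria in many cell types.

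Positions are from the GENCODE M21 annotation of GRCm38, the build the counts were made on. Hsd3b1 (chr3:98852194-98859794) and Hsd3b6 (chr3:98805504-98814443) are neighbours on the reverse strand, 37750 bases apart. Cyp17a1 lay at chr19:46667165-46673172 and Hsd17b3 at chr13:64058266-64089230, both on the reverse strand. Cyp11a1 (chr9:58006411-58027023) overlapped a non-coding gene on its own strand, Gm17322, and Insl3 (chr8:71689214-71690575) overlapped Jak3 on its own strand, so counts of these 2 genes could include reads of their neighbours. Star lay at chr8:25806555-25815982, Lhcgr at chr17:88716481-88791990, Fdx1 at chr9:51943306-51963556 and Hsd17b11 at chr5:103989762-104021919.

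Promoter windows of RefSeq (GRCm38.p6), 300 bases from 250 before to 50 after a start site, were found for 8 of the 10 genes, in 9 windows. Cyp17a1 and Star had none. The windows were searched on both strands for AAGGTCA, the core bound by the steroidogenic regulator NR5A1. It was in 0 of the 9 windows and in 4.72% of all 32851. The shorter AAGGTC, which is contained in it and was searched after the first gave no match, was in 1 of the 9 and in 12.3% of all. That window was Insl3's, with a match beginning 136 bases before the start site and another, on the opposite strand, from 90 bases before it. Below it stand the windows of the neighbouring pair, whose separate counts the comparison of HSD3B1 with HSD3B6 rests on. Capitals mark AAGGTC or its reverse complement. The windows lay at chr8:71689002-71689301 (forward strand), chr3:98859745-98860044 and chr3:98814394-98814693 (both reverse), each printed 5′ to 3′ along its gene.
INSL3: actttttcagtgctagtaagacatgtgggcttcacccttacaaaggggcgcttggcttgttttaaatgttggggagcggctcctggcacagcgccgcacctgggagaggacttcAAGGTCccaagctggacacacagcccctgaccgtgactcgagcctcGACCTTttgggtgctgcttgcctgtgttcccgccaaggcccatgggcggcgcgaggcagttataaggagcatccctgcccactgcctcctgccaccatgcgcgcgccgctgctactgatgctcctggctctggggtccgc
HSD3B1: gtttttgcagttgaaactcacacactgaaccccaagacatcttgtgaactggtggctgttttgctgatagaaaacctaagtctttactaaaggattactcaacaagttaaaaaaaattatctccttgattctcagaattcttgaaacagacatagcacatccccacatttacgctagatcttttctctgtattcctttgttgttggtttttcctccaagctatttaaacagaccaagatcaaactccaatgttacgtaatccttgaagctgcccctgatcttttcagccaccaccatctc
HSD3B6: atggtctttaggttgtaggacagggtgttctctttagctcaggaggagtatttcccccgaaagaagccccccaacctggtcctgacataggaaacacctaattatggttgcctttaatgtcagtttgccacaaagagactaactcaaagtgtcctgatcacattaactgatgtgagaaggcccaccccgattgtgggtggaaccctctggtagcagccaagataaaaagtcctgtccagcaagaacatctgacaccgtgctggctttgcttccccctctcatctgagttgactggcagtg
The Hsd3b1 and Hsd3b6 windows were identical at 47.0% of aligned positions. Their longest transcripts were identical at 77.3%, and the last 300 bases, where 3′ libraries draw their reads, at 65.6% with 0 shared stretches of 25 bases. Over the whole transcripts 152 of the 1831 stretches of 25 bases in Hsd3b1 were shared with Hsd3b6.

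Leydig-like cells formed a single cluster of 97 cells. The 10 genes had been left out of the clustering, so the cells were not grouped by them. The cluster was named by 12 other Leydig markers, of which 11 were higher in it, and it was led by CYP17A1 and by AGT, PTGDS, LCN2 and APOC1. It held 7 of 100 cells in WT replicate 1, 36 of 237 in Ctcf-cKO replicate 1 and 54 of 263 in Ctcf-cKO replicate 3. WT replicate 2 had none among 255 cells, which allows a share of up to 1.18% by the floor of 3 cells and 1.44% by the exact binomial interval. It had 1 to 3 Leydig-like cells in 4 of the 8 alternative settings (2 at 2 times the plateau, 3 with at least 500 genes per cell, 2 with the 10 genes kept in clustering and 1 without doublets), with 0 counts of CYP17A1 in each. The other shares were 7.0% (exact binomial 95% interval 2.86 to 13.9), 15.2% (10.9 to 20.4) and 20.5% (15.8 to 25.9). The Ctcf-cKO mice had the larger shares, but an exact permutation test of 2 against 2 mice cannot give a two-sided p under 0.333. With a Leydig-like sum missing from WT replicate 2, no test between genotypes was made within these cells, and the WT side of every Leydig-like value below is 7 cells of 1 mouse.

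All 10 genes were detected in Leydig-like cells of each of the 3 mice that had them. LHCGR, the receptor that starts the pathway, stood at 135 CPM (counts per 1000000 counts of the same cells) in WT replicate 1 (exact Poisson 95% interval 49.6 to 294, 6 counts). In the Ctcf-cKO mice it was at 96.8 (59.9 to 148) and 182 CPM (123 to 260). The 3 intervals overlapped. STAR, the cholesterol carrier, was at 1105 CPM (817 to 1461) in the WT mouse, against 535 (442 to 641) in Ctcf-cKO replicate 1 and 644 (527 to 779) in Ctcf-cKO replicate 3. The WT interval lay above both, though with cells at 5 times the plateau, which left 2 WT cells, WT lay between them (870 CPM against 587 and 976). CYP11A1, the side chain cleavage enzyme, was at 1511 CPM in WT, 2456 in Ctcf-cKO replicate 1 and 1167 in Ctcf-cKO replicate 3, so the WT value lay between the Ctcf-cKO values. Its electron donor FDX1 was level across the 3 mice, at 1037, 931 and 1033 CPM.

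The enzymes after pregnenolone were also present in both genotypes. CYP17A1 was at 4171 CPM (3592 to 4817) in WT against 4663 (4380 to 4960) for Ctcf-cKO replicate 1 and 3288 (3017 to 3577) for Ctcf-cKO replicate 3. HSD3B1 was at 2300 CPM in WT against 1742 and 1860, and HSD3B6 at 2660 CPM against 2051 and 2139. For both the WT value was the highest of the 3, but at 5 times the plateau it was the lowest, at 311 CPM for HSD3B1 (1971 and 2883 in Ctcf-cKO) and 1926 for HSD3B6 (2188 and 2927). HSD17B3, which makes testosterone from androstenedione, was at 857 CPM (606 to 1176) in WT, 599 (500 to 711) in Ctcf-cKO replicate 1 and 225 (158 to 310) in Ctcf-cKO replicate 3. The Ctcf-cKO mice differed from each other here by more than their counting intervals. HSD17B11 was at 180 (77.9 to 355), 286 and 261 CPM.

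INSL3, the peptide hormone, was at 992 CPM (721 to 1332) in WT, 309 (239 to 392) in Ctcf-cKO replicate 1 and 140 (88.6 to 210) in Ctcf-cKO replicate 3. These 3 intervals did not overlap, and the WT value rested on 44 counts in 4 cells. Intervals here cover counting error only, and the deposited counts of single entries fell off sharply above 4, so 1 molecule may have been counted more than once and the intervals are then too narrow. Cells held a median of 8 of the 10 genes in WT replicate 1, 5 in Ctcf-cKO replicate 1 and 4 in Ctcf-cKO replicate 3, at median depths of 4597, 4788 and 2884 counts. The part of depth in this order was not tested. A 3′ count was not divided by gene length, so levels are compared within a gene and not between genes.

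**Figure D1:**
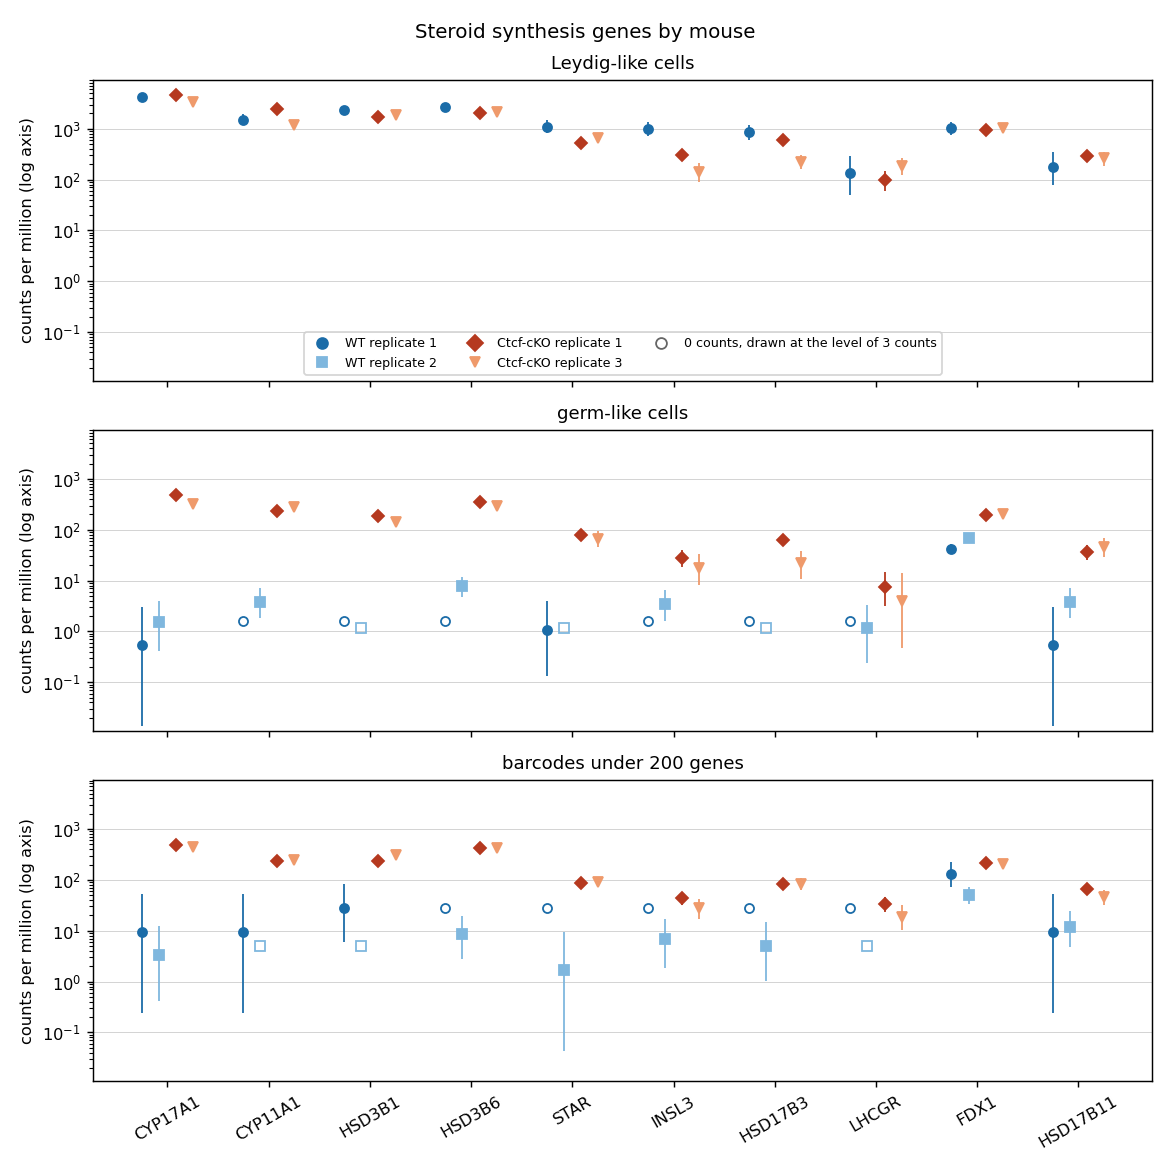
CPM (log axis) of the 10 genes in Leydig-like cells, germ-like cells and barcodes under 200 genes, with a point per mouse, exact Poisson 95% intervals as bars, and open symbols at the level of 3 counts where a mouse had 0. In germ-like cells and in barcodes under 200 genes both Ctcf-cKO mice lay above both WT mice for each gene, though for LHCGR and INSL3 the level of 3 counts in barcodes under 200 genes of WT replicate 1 (28.6 CPM) is above Ctcf-cKO replicate 3. In Leydig-like cells WT replicate 1 lay above, between or, for HSD17B11, below the Ctcf-cKO mice.

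The 5 Leydig-like cells of each mouse with most counts held 85.3% of the counts of the 9 genes other than FDX1 in WT replicate 1, 51.2% in Ctcf-cKO replicate 1 and 50.4% in Ctcf-cKO replicate 3. A single cell reached 170 counts of CYP17A1 in Ctcf-cKO replicate 1 and 68 in WT replicate 1. Single genes were often undetected. STAR had a count in all 7 WT cells, in 47.2% of those of Ctcf-cKO replicate 1 and in 29.6% of those of Ctcf-cKO replicate 3. After thinning each cell to 1000 counts, which left out 3 cells of Ctcf-cKO replicate 3, the shares for STAR were 42.9%, 22.2% and 19.6%. For CYP17A1 they were 85.7%, 72.2% and 60.8%.

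The counts of the 10 genes lay in different places in the 4 libraries. Leydig-like cells held 35.3% of them in WT replicate 1, 39.4% in Ctcf-cKO replicate 1 and 42.6% in Ctcf-cKO replicate 3. Barcodes under 200 genes held 1.06% and 10.1% in the WT mice against 27.6% and 33.7% in the Ctcf-cKO mice. Germ-like cells held 4.31% and 45.3% in WT and 23.6% and 16.8% in Ctcf-cKO. In WT replicate 2 these were mostly FDX1, with 178 of 234 counts. Intermediate barcodes, with 200 genes or more but not called cells, held 58.5% and 41.6% in WT against 4.26% and 1.82% in Ctcf-cKO. WT replicate 1 thus had 199 of its 386 CYP17A1 counts in barcodes that were neither cells nor under 200 genes.

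**Figure D2:**
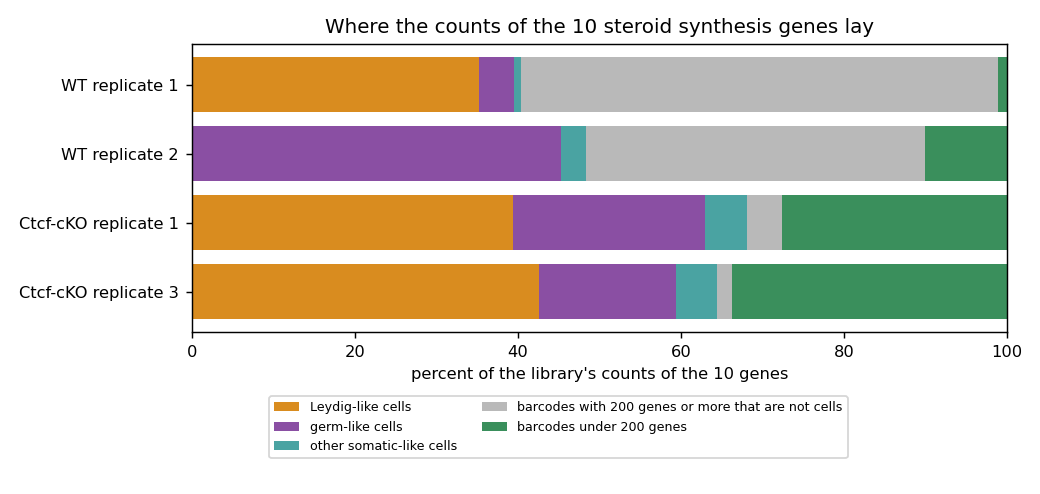
Share of each library's counts of the 10 genes (percent, bars add to 100) by kind of barcode, with a bar per mouse. Barcodes under 200 genes held 27.6% and 33.7% in the Ctcf-cKO mice, and intermediate barcodes 58.5% and 41.6% in the WT mice.

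Over all barcodes of a library, which needs no choice of cells, each of the 10 genes was higher in Ctcf-cKO than in WT by the quasi-likelihood test of edgeR, with p-values adjusted after Benjamini and Hochberg over 14553 genes. Of all genes tested, 18.4% were called higher in Ctcf-cKO. The median log2 fold change of the 10 was 4.02 against -0.04 over all genes, and single values ran from 1.91 to 4.77. Both Ctcf-cKO mice lay above both WT mice for all 10, as they did for 32.3% of the genes tested. In such sums more Leydig cells and more RNA per cell cannot be told apart. The 12 other Leydig markers moved alike, with 624 and 311 CPM summed in WT and 5795 and 5112 in Ctcf-cKO. Sertoli markers moved too (170 and 364 CPM in WT against 2756 and 2860 for Ctcf-cKO), as did those of red blood cells (198 and 18.5 against 2139 and 1404), fibroblasts (189 and 246 against 1204 and 720) and macrophages (763 and 937 against 1727 and 2009). The Sertoli list also summed to 6020, 6575 and 5555 CPM in Leydig-like cells of WT replicate 1 and the Ctcf-cKO mice. In WT replicate 1 only 3 of its 12 genes had counts there. The macrophage list summed to 1092 CPM in germ-like cells of WT replicate 1, from 5 of its 12 genes. C1QA and CSF1R were at 0 there. Both sums are thus not read as RNA of Sertoli cells or macrophages alone. Spermatocyte markers (869 and 880 against 446 and 440) and round spermatid markers (5048 and 4828 against 2598 and 2559) were lower in Ctcf-cKO. Elongating spermatid markers were not (78132 and 109731 against 111071 and 114247). Their part in the result was not tested.

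LHCGR had 21 and 3 counts in WT (3.13 and 0.62 CPM) against 76 and 55 for Ctcf-cKO (28.7 and 34.5 CPM), a log2 fold change of 4.05 (SE 0.59, adjusted p = 0.000470, edgeR). STAR had 141, 7, 314 and 229 counts in the same order of mice, with a log2 fold change of 3.57 (SE 0.66, adjusted p = 0.00211, edgeR). WT replicate 1 was 14.6 times as high as WT replicate 2 for STAR, so the WT mice were far apart. DESeq2 did not call STAR (adjusted p = 0.0540).

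CYP11A1 had 29.7 and 3.29 CPM in WT against 420 and 348 CPM for Ctcf-cKO. CYP17A1 had 57.6 and 2.26 CPM in WT against 861 and 706 CPM for Ctcf-cKO, with a log2 fold change of 4.77 (SE 0.79, adjusted p = 0.00111, edgeR). WT replicate 2, the mouse without Leydig-like cells, was the lowest library for every gene but HSD17B11. Its CYP17A1 level, from 11 counts, was 25.4 times lower than that of WT replicate 1.

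HSD3B6 had 34.2 and 7.41 CPM in WT against 543 and 546 CPM for Ctcf-cKO (log2 fold change 4.76, SE 0.47, adjusted p = 2.92e-05, edgeR). HSD3B1 had 29.8 and 1.03 CPM against 350 and 409 CPM, and HSD17B3 had 8.80 and 2.88 CPM against 112 and 70.3 CPM. HSD17B11 had 4.63 and 8.23 CPM in WT against 86.3 and 71.5 CPM for Ctcf-cKO, with WT replicate 2 the higher of the WT mice. Of these 4 enzymes the Ctcf-cKO mice were closest to each other for HSD3B6 and farthest apart for HSD17B3.

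INSL3 and FDX1 showed the smallest differences. INSL3 had 12.1 and 3.70 CPM in WT against 56.5 and 33.3 CPM for Ctcf-cKO (log2 fold change 2.57, SE 0.50, adjusted p = 0.00296, edgeR), and it was not called without Ctcf-cKO replicate 1 (adjusted p = 0.0581). FDX1 had 79.4 and 75.5 CPM in WT against 265 and 293 CPM for Ctcf-cKO (log2 fold change 1.91, SE 0.20, adjusted p = 4.25e-05, edgeR). It was the only one of the 10 whose WT mice were alike, and in WT it was counted mostly outside Leydig-like cells, which held 8.65% of its counts in WT replicate 1.

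In barcodes under 200 genes the 9 genes other than FDX1 had 0 to 7 counts each in a WT mouse and 14 to 535 in a Ctcf-cKO mouse. Of the 10 genes, 9 were called higher in Ctcf-cKO by edgeR, in a test of 7880 genes of which 5.84% were called higher. Both Ctcf-cKO mice lay above both WT mice for all 10, and for 22.1% of all genes tested. All 10 passed the filter on low counts, several only through the Ctcf-cKO mice. The median log2 fold change was 5.97, or 5.20 with LHCGR at its lower bound, against 0.07 over all genes. Intermediate barcodes, left out here, held 69.2% and 33.1% of the WT library counts against 2.66% and 1.23% of those of Ctcf-cKO. With all barcodes that are not cells, all 10 were called and their median was 4.18, so the size of the difference depended on this limit.

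CYP17A1 had 1 and 2 counts in WT against 535 and 338 for Ctcf-cKO, which is 9.53 and 3.39 CPM against 495 and 452 CPM. Pooled over the mice of a genotype the ratio was 111 (counting interval 37.7 to 537). HSD3B6 had 0 and 5 counts against 461 and 321, and HSD3B1 had 3 and 0 against 256 and 230. CYP11A1 had 1 WT count in all against 443, a pooled ratio of 168 (30.1 to 6666), and its interval shows how little the WT side fixed the size.

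STAR had 0 and 1 counts in WT against 92 and 69 for Ctcf-cKO, a pooled ratio of 61.2 (10.8 to 2432). HSD17B3 had 0 and 3 counts against 89 and 63. LHCGR had 0 counts in both WT mice against 36 and 14 for Ctcf-cKO, at least 6.34-fold higher against a floor of 3 counts over both WT mice. HSD17B11 had 1 and 7 counts against 73 and 34.

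FDX1 had 14 and 30 counts in WT (133 and 50.8 CPM) against 237 and 151 for Ctcf-cKO (219 and 202 CPM), a log2 fold change of 1.76 (SE 0.42, adjusted p = 0.0103, edgeR). INSL3 had 0 and 4 counts in WT against 47 and 21 for Ctcf-cKO, and its log2 fold change of 2.89 (SE 0.95) was not called (adjusted p = 0.0725, edgeR). In CPM the Ctcf-cKO mice were again alike, at 1927 and 1908 for the 10 genes together, against 191 and 88.1 in WT.

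The counts of WT replicate 1 in these barcodes came to 104983 in all, so that 3 counts correspond to 28.6 CPM. This is above the level in Ctcf-cKO replicate 3 of LHCGR (18.7 CPM) and of INSL3 (28.1 CPM), so a difference from WT replicate 1 was not detectable there for these genes. Some other markers in these barcodes moved with the genes. The 12 Leydig markers summed to 514 and 413 CPM in WT and 4171 and 3938 in Ctcf-cKO, and red blood cell markers to 47.6 and 10.2 CPM against 1296 and 1827. Round spermatid markers were lower in Ctcf-cKO (6153 and 4225 against 2306 and 2540 CPM), as were spermatocyte markers (733 and 816 against 430 and 525). Elongating spermatid markers overlapped between the genotypes (64353 and 118903 against 117964 and 109234). The calls depended on the test and the libraries. DESeq2 called 5 of the 10, and edgeR with library totals alone called 6. The scaling also moved the split over all genes, from 460 higher and 46 lower to 277 and 72 with library totals. Leaving out Ctcf-cKO replicate 1 left 6 of 9 tested, leaving out Ctcf-cKO replicate 3 left 6 of 10, and leaving out WT replicate 2 left 8, while without WT replicate 1 all 10 were called. CYP17A1, CYP11A1, HSD3B6, STAR and HSD17B3 were called in each of these settings.

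**Figure D3:**
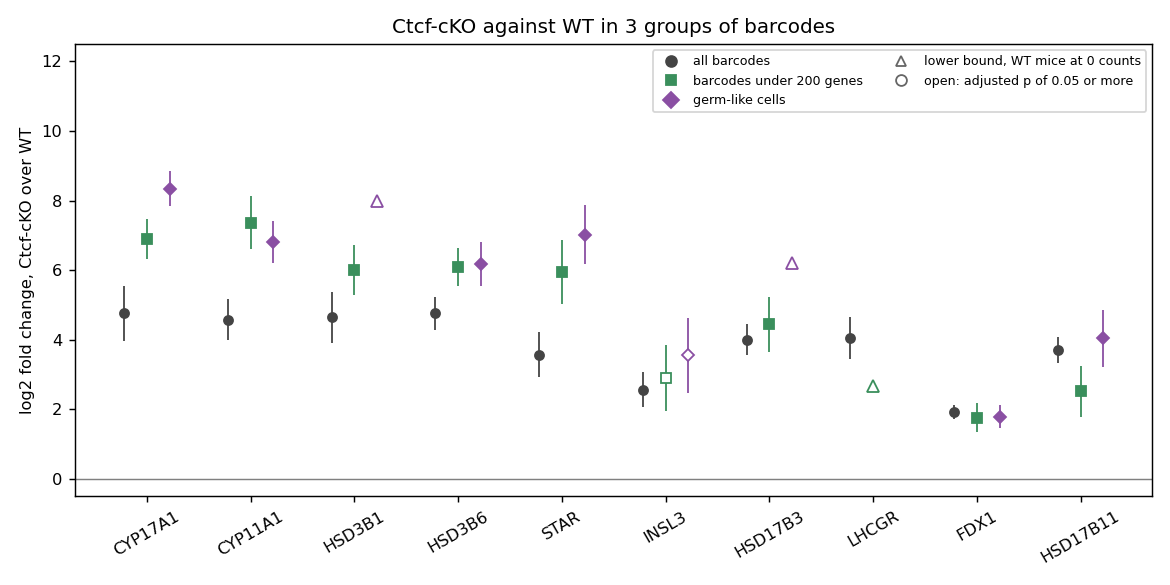
Log2 fold change between Ctcf-cKO and WT of the 10 genes in 3 groups of barcodes, with standard errors from edgeR. Open circles, squares and diamonds were not called, and triangles are lower bounds where both WT mice had 0 counts. FDX1 (1.91, 1.76 and 1.79) had the lowest value in each group and INSL3 (2.57, 2.89 and 3.55) was among the lower ones. LHCGR was not tested in germ-like cells.

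Germ-like cells, the cells of clusters named by spermatocyte, round spermatid or elongating spermatid markers, numbered 88 and 246 in WT and 156 and 152 in Ctcf-cKO. Of the 10 genes, 9 passed the filter there and 8 were called higher in Ctcf-cKO by edgeR, in a test of 10084 genes of which 5.54% were called higher. Several, among them HSD3B1 and HSD17B3 with 0 WT counts, passed only through the Ctcf-cKO mice. Both Ctcf-cKO mice lay above both WT mice for all 10 genes, and for 26.1% of the genes tested. The median log2 fold change of the 9 was 6.80, or 6.20 with HSD3B1 and HSD17B3 at their lower bounds, against -0.04 over all genes.

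HSD3B1 had 0 counts in the 334 WT germ-like cells against 199 and 73 for Ctcf-cKO (186 and 144 CPM), at least 256-fold higher against 3 counts over both WT mice. HSD17B3 also had 0 in WT, against 67 and 11, at least 73.3-fold higher. CYP17A1 had 1 and 4 counts in WT against 514 and 162 for Ctcf-cKO, which is 0.54 and 1.54 CPM against 479 and 320 CPM (log2 fold change 8.34, SE 0.51, adjusted p = 5.99e-07, edgeR). In Leydig-like cells of the same Ctcf-cKO mice CYP17A1 was 9.73 and 10.3 times as high.

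HSD3B6 had 0 and 20 counts in WT against 373 and 150 for Ctcf-cKO, and CYP11A1 had 0 and 10 against 253 and 144. Both were thus seen in germ-like cells of WT replicate 2, at 7.69 and 3.85 CPM, and not in those of WT replicate 1. STAR had 2 and 0 counts in WT against 85 and 34 for Ctcf-cKO, a pooled ratio of 168 (45.4 to 1401). HSD17B11 had 1 and 10 against 39 and 23.

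FDX1 was counted in germ-like cells of both genotypes, with 77 and 178 counts in WT (41.7 and 68.5 CPM) against 208 and 103 for Ctcf-cKO (194 and 204 CPM), a log2 fold change of 1.79 (SE 0.34, adjusted p = 0.00508, edgeR). INSL3 had 0 and 9 counts in WT against 30 and 9 for Ctcf-cKO, and was not called (log2 fold change 3.55, SE 1.08, adjusted p = 0.0753, edgeR). LHCGR, with 0 and 3 counts against 8 and 2, was not tested.

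The shares of cells with a count showed the same order of the mice. A count of any of the 9 genes other than FDX1 was found in 3 of 88 (3.41%) and 22 of 246 (8.94%) WT germ-like cells, and in 114 of 156 (73.1%) and 91 of 152 (59.9%) of those of Ctcf-cKO. The 5 germ-like cells with most counts held 100% and 35.7% of the counts of these 9 genes in WT (4 and 56 counts). In Ctcf-cKO they held 31.6% and 23.8% (1568 and 608 counts). Of the Ctcf-cKO germ-like cells 16 and 5 had 5 or more of the 10 genes, and of those of WT 0 and 0. The WT germ-like cells were the deeper ones, with medians of 16196 and 8040 counts against 4701 and 1781. After thinning to 1000 counts, which left out 22 cells of Ctcf-cKO replicate 3, CYP17A1 was found in 0% and 0.41% of WT and in 21.8% and 21.5% of Ctcf-cKO germ-like cells. In other somatic-like cells of the Ctcf-cKO mice CYP17A1 was found in 28.9% and 21.4% after thinning. Their median depths before thinning were 4264 and 2443 counts. These cells came from clusters named by macrophage, fibroblast or peritubular, and Sertoli markers. The largest of these clusters, with 70 cells, also had 3 of the 12 Leydig markers higher. The source of the counts in germ-like cells was not tested, and no expression is read from these shares.

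Among the germ-like cells of the main clustering, the WT mice had no count of the 9 genes in elongating spermatid-like cells. Of the 9 genes, none had a count in the 63 and 29 such cells of the WT mice, which allows shares of up to 5.69% and 11.9% (exact binomial 95% limits). Of the Ctcf-cKO cells 69.4% of 85 and 57.4% of 108 had one. Median depths were 15675 and 7323 counts in WT against 2996 and 1626 for Ctcf-cKO. Of these Ctcf-cKO cells 47 and 67 came from a cluster with a median of 1917 counts. At resolution 1.3 a cluster of 119 cells with a median of 1826 counts, led by HBB-BS, was left unnamed. Without batch correction 67 and 99 Ctcf-cKO cells formed a cluster named by red blood cell markers. The naming of shallow cells thus depended on the clustering. Tested alone, 6 of the genes passed the filter and all 6 were called higher (15.1% of the 3670 genes tested were). They were CYP17A1, CYP11A1, HSD3B1, HSD3B6, STAR and FDX1. All but FDX1 had 0 counts in both WT mice and passed only through the Ctcf-cKO mice, so they could only come out higher. In round spermatid-like cells 8 were tested and 4 called (CYP17A1, CYP11A1, HSD3B1 and HSD3B6), in a test that called 0.216% of 6946 genes higher. HSD3B1 had 0 WT counts there as well. In spermatocyte-like cells, of which WT replicate 1 had 5, none of the 6 tested was called by edgeR, while all 6 had an unadjusted p under 0.05, as 248 of the 3513 genes did. CYP17A1 stood at 0 and 1.98 CPM in WT spermatocyte-like cells and at 1776 and 638 in those of Ctcf-cKO. The 5 cells with most counts held 73.8% of the counts of the 9 genes there in Ctcf-cKO replicate 1, which had 17 such cells. In Ctcf-cKO replicate 3, which had 12, they held 93.7%.

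**Figure D4:**
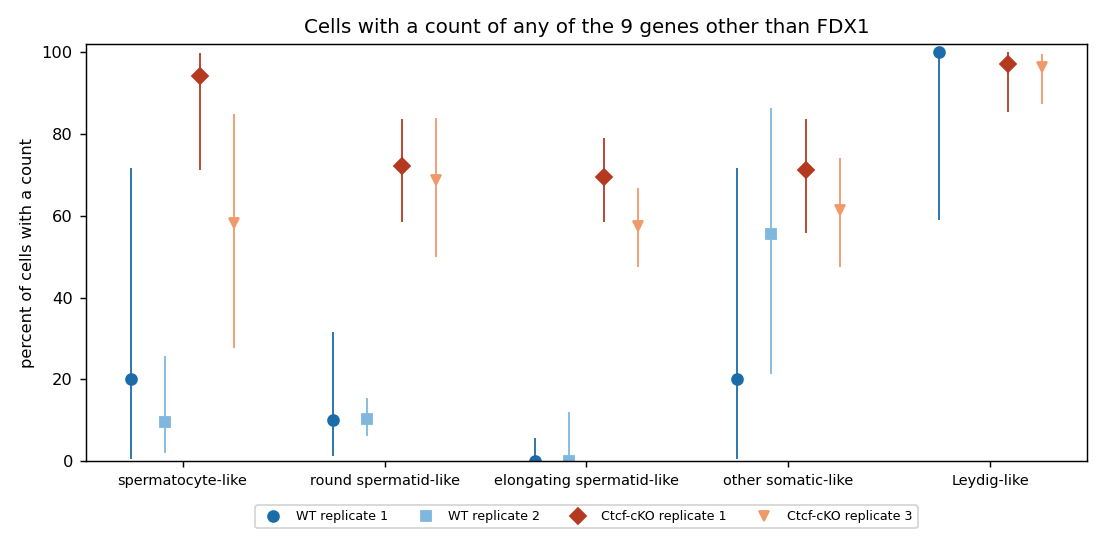
Percent of cells in each class with a count of any of the 9 genes other than FDX1, with a point per mouse and exact binomial 95% intervals. In elongating spermatid-like cells both WT mice stood at 0 and the Ctcf-cKO mice at 69.4% and 57.4%, next to 71.1% and 61.4% in other somatic-like and 97.2% and 96.3% in Leydig-like cells.

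Markers of Leydig cells outside the 10 genes moved in germ-like cells as well. They summed to 74.1 and 224 CPM in WT and to 2973 and 2760 CPM in Ctcf-cKO, with counts of 7 and 11 of the 12 markers in WT and of 11 and 11 in Ctcf-cKO. HSD11B1 was at 0 in both Ctcf-cKO mice. Sertoli markers summed to 45.4 and 238 CPM against 1903 and 1908, and red blood cell markers to 1.08 and 10.4 CPM against 2925 and 1046. The Sertoli list was also counted in Leydig-like cells, at 5555 to 6575 CPM, so its sum is not read as Sertoli RNA alone. The part of these markers in the result was not tested. Without batch correction only 34 and 27 cells of the Ctcf-cKO mice were germ-like and edgeR called none of the 6 genes tested, though all 6 had an unadjusted p under 0.05, among 587 of 8692 genes. The germ-like level of CYP17A1 was then 680 CPM in Ctcf-cKO replicate 1 and 26.7 in Ctcf-cKO replicate 3, and that of CYP11A1 214 and 26.7. STAR, INSL3, HSD17B3 and LHCGR had 0 counts in germ-like cells of Ctcf-cKO replicate 3 in that setting, so the values of this mouse depended on the batch correction. Without Ctcf-cKO replicate 1, 5 of 8 genes were called.

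Germ-like cells and barcodes under 200 genes of the same mouse were then compared directly, with the mouse as a block. None of the 10 genes was called by edgeR or by DESeq2, and 2 (HSD3B1 and HSD17B3) had an unadjusted p under 0.05 in edgeR and 1 (HSD17B3) in DESeq2. Of 10322 genes, 0.116% were called lower and 0 higher in germ-like cells, with 613 at an unadjusted p under 0.05. In Ctcf-cKO replicate 1 CYP17A1 was at 479 CPM in germ-like cells and at 495 in barcodes under 200 genes, and CYP11A1 at 236 and 238. In Ctcf-cKO replicate 3 the values were 320 and 452 for CYP17A1 and 285 and 249 for CYP11A1. The log2 difference was -0.47 (SE 0.33) for CYP17A1 and 0.06 (SE 0.39) for CYP11A1. It was -1.03 (SE 0.44, adjusted p = 0.789, edgeR) for HSD3B1 and -1.48 (SE 0.59, adjusted p = 0.766, edgeR) for HSD17B3. The median over the 10 was -0.63, against 0.01 over all genes. Missing the threshold does not show that the levels were equal, and for the other 8 genes the log2 differences lay between -1.60 and 0.06.

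Within the Ctcf-cKO mice Leydig-like cells were above germ-like cells and above barcodes under 200 genes for all 10 genes in both mice. For the 10 together they were 8.25 and 7.78 times as high as germ-like cells and 7.09 and 5.74 times as high as barcodes under 200 genes. Germ-like cells stood at 0.86 and 0.74 times the level of barcodes under 200 genes. In WT replicate 1, where both were measured, Leydig-like cells were 341 times as high as germ-like cells and 78.5 times as high as barcodes under 200 genes for the 10 genes together. FDX1, the only single gene with over 3 counts on both sides there, was 24.9 times as high. The cells were named by other Leydig markers, so these ratios are a description and carry no test.

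The counted proportion of HSD3B1 and HSD3B6 differed between some groups of barcodes, by intervals that take each count as independent. In Leydig-like cells HSD3B6 made up 53.6% of the counts of the pair in WT replicate 1 (118 of 220, exact binomial interval 46.8 to 60.4), 54.1% in Ctcf-cKO replicate 1 (50.6 to 57.5) and 53.5% in Ctcf-cKO replicate 3 (49.6 to 57.4). The 3 mice were alike there. In germ-like cells of the Ctcf-cKO mice it made up 65.2% (61.1 to 69.1) and 67.3% (60.7 to 73.4), and in both mice these intervals lay above those of Leydig-like cells. For the spermatocyte-like cells of Ctcf-cKO replicate 1 alone it was 57.8% (51.2 to 64.3), which overlapped the Leydig-like interval. In barcodes under 200 genes it was 64.3% (60.7 to 67.8) and 58.3% (54.0 to 62.4). In other somatic-like cells it was 54.5% (46.0 to 62.8) and 44.6% (32.3 to 57.5). With each entry divided by 4 and rounded up, the shares were 54.1% (47.3 to 60.8) and 54.5% (47.1 to 61.8) in Leydig-like cells against 64.7% (57.0 to 71.9) and 66.7% (55.1 to 76.9) in germ-like cells. The shares moved little, but the intervals then overlapped. In WT replicate 2 the germ-like cells had 20 counts of HSD3B6 and 0 of HSD3B1, and the whole library 36 and 5.

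**Figure D5:**
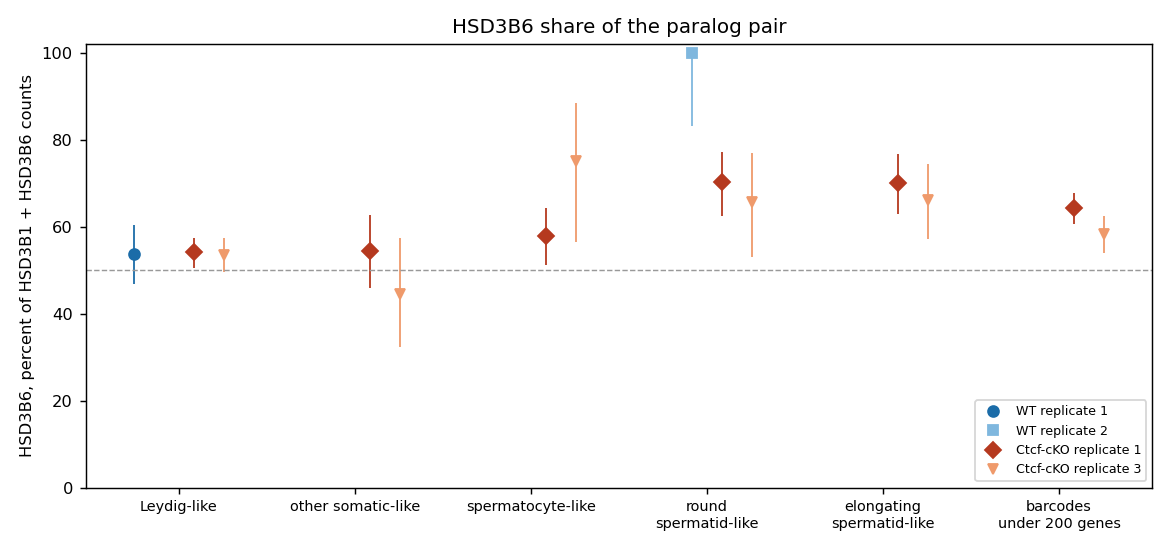
HSD3B6 as a percent of the counts of HSD3B1 and HSD3B6, by mouse and class where the pair had at least 20 counts, with exact binomial 95% intervals. Leydig-like cells of 3 mice stood at 53.5% to 54.1%, and germ-like classes and barcodes under 200 genes of the Ctcf-cKO mice between 57.8% and 75.0%. The dashed line marks equal counts of the pair.

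The 45 other genes of the pathway, listed as cholesterol supply, transport and redox partners, other steroid enzymes and LH signalling with its regulators, moved less evenly. Over all barcodes 40 were tested, of which 26 were higher in Ctcf-cKO, 2 lower and 12 neither, with a median log2 fold change of 2.36. All 5 transport and redox partners rose (TSPO, DBI, FDXR, POR and CYB5A), as did 11 of 19 cholesterol supply genes, 3 of 5 other enzymes and 7 of 11 signalling genes and regulators. Among the rises were the transcription factor GATA4 (log2 fold change 4.16, SE 0.66) and MSMO1, a sterol oxidase (4.12, SE 0.33). FDFT1, squalene synthase, fell, with 1577 and 944 counts in WT against 363 and 201 for Ctcf-cKO (log2 fold change -0.64, SE 0.20, adjusted p = 0.0334, edgeR).

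In barcodes under 200 genes 32 of the 45 were tested, 11 rose and none fell in edgeR. Among them were HSD17B12, NSDHL and LSS, each with 0 counts in both WT mice. They passed the filter on low counts only through the Ctcf-cKO mice. Against 3 counts over both WT mice they were at least 11.4-fold, 9.25-fold and 4.94-fold higher. In germ-like cells 32 were tested, 9 rose and none fell. NR5A1, the regulator of steroid synthesis genes, had 1 and 0 counts in WT germ-like cells against 46 and 24 for Ctcf-cKO, a pooled ratio of 197 (34.3 to 7903). MSMO1 (log2 fold change 4.64, SE 0.71) and DHCR7 (4.39, SE 0.74) followed. NR5A1, MSMO1 and DHCR7 passed the filter there only through the Ctcf-cKO mice. Between germ-like cells and barcodes under 200 genes none of the 37 tested was called by edgeR.

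The genes whose levels followed the 10 most closely over the 11 sums of Leydig-like cells, germ-like cells and barcodes under 200 genes were CST3 (Pearson r = 0.994 with the mean log2(CPM + 1) of the 10), TCEAL9 (0.993), CREB3L1 (0.991), PRDX2 (0.990) and SLC22A17 (0.990), among 10855 genes ranked. The 11 sums share mice and libraries, so r is a description. CYP17A1 itself ranked 2 in this list and INSL3, the lowest of the 10, ranked 241. CST3, which encodes the secreted protease inhibitor cystatin C, was at 4802 CPM in Leydig-like cells of WT replicate 1 against 3875 and 3106 for the Ctcf-cKO mice. In germ-like cells it was at 31.9 and 85.4 CPM in WT and at 812 and 621 in Ctcf-cKO. In barcodes under 200 genes it was at 66.7 and 108 CPM in WT and at 734 and 757 in Ctcf-cKO.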

How the data were processed

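Testes of 2 WT and 2 Ctcf-cKO mice were profiled by droplet single cell RNA-seq, with 1 library per mouse, named from the labels. The deposited tables hold whole-number counts per gene and barcode, which the authors made by alignment to GRCm38, and the counting tool and the merging of reads per molecule are not given in the sources used here. No sample column was unused. Nothing names a batch, and p-values measure the spread between single mice.

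Cells (855) had 200 to 7000 genes, at most 10% mitochondrial counts and at least 3 times the plateau, the median count of barcodes ranked 501 to 1500. They were clustered in Seurat 5.3.0 with Harmony, 2000 variable genes, 15 components and resolution 0.9, without the 10 genes. Clusters were named from fixed markers. Scrublet in scanpy 1.11.5 marked 13, 24, 4 and 25 doublets, which were kept. Counts were summed per mouse and group of barcodes and tested in edgeR 4.0.16 (R 4.3.3) by the quasi-likelihood test after filterByExpr and TMM scaling (adjusted after Benjamini and Hochberg, called at an adjusted p under 0.05), with the mouse as block between groups of barcodes of the same mice. Standard errors were the log2 fold change divided by the root of F. The scripts were tested on simulated data. Alternatives used DESeq2 1.42.0, other scalings, filters, cells and clusterings.

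Named were the 10 genes, CTCF, up to 3 other pathway genes called higher and 3 lower per comparison by fold, and the 5 genes most like the 10 with at least 50 counts over the sums. Some genes this rule names are not reported here. The genes and lists were chosen with earlier results of these data known. Dividing counts by 4, pooling all barcodes that are not cells, single germ classes and the shorter motif were chosen after seeing the data. Intervals are 95% and floors 3 counts, and both cover counting error only.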

Additional observations from a re-analysis of the deposited data

How the results depend on the processing

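Of the alternatives for single genes among the 10, 95 of 97 kept direction and call over all barcodes, 97 of 117 in barcodes under 200 genes, 146 of 169 in germ-like cells, and 190 of 198 between germ-like cells and barcodes under 200 genes. In every alternative of the 3 genotype comparisons the 10 genes, where tested, kept their direction, and Leydig-like cells stayed above germ-like cells for all 10 in both Ctcf-cKO mice. Of 80 alternative levels in Leydig-like cells, each the mean of the Ctcf-cKO mice, 26 moved by the SD between these mice or more. WT replicate 1 was not part of this count.

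Over all barcodes edgeR called 4149 genes, and 1711 to 4440 with 1 mouse left out (1711 without Ctcf-cKO replicate 1, 1989 without Ctcf-cKO replicate 3). In barcodes under 200 genes 506 genes and 9 of the 10 were called. DESeq2 called 230 and 5, a minimum of 10 counts in every sum 69 and 1 (of 1 tested), a minimum of 50 genes 256 genes, all barcodes that are not cells 1795 genes, and leaving out 1 mouse 132 to 1347 genes and 6 to 10 of the 10. The lowest was without Ctcf-cKO replicate 1 and the highest without WT replicate 2.

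In germ-like cells 580 genes and 8 of the 10 were called. A minimum of 10 counts gave 238 and 1 (of 1 tested), 5 times the plateau 341 genes, resolution 1.3 gave 357, leaving out doublets 332, no batch correction 0 and 0 (587 genes at an unadjusted p under 0.05 in edgeR), spermatocyte-like cells alone 0 and 0 (248 genes), round spermatid-like cells alone 15 and 4, and leaving out 1 mouse 188 to 1047 genes and 5 to 9 of the 10. Between germ-like cells and barcodes under 200 genes 12 genes were called, against 19 with library totals, 28 unfiltered, 0 with at least 10 counts (153 at an unadjusted p under 0.05), 21 at 2 times the plateau, 20 with at least 500 genes per cell, 41 with counts divided by 4, 20 with all barcodes that are not cells, and 2 (without WT replicate 2) to 109 (without WT replicate 1).

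There the log2 difference of CYP11A1, 0.06 and not called, became -0.20 at 2 and -0.51 at 5 times the plateau, -1.28 without batch correction, -0.12 with the 10 genes kept in clustering, -0.061 without doublets, -0.58 with all barcodes that are not cells, and -0.073 to 0.26 with 1 mouse left out. FDX1 ran from -0.37 to 0.031 with 1 mouse left out. The causes were not tested.

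The shallow Ctcf-cKO libraries and the 7 WT Leydig-like cells limit these values, and intervals assume 1 count per molecule. The genotypes were compared without pairing, because no label pairs a WT mouse with a Ctcf-cKO mouse.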
